A study of Homo sapiens with 8 samples.

Results

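Border-associated macrophages are the macrophages of the meninges, the perivascular spaces and the choroid plexus, at the edges of the brain rather than inside its tissue. The markers described here are 9 genes that are used to tell these cells from microglia: the scavenger receptor CD163 and its relative CD163L1, the mannose receptor MRC1, the folate receptor FOLR2, the hyaluronan receptor LYVE1, the transglutaminase subunit F13A1, the scavenger receptor STAB1, the phosphatidylserine receptor TIMD4 and the secreted selenium carrier SELENOP. They were taken by symbol from a table of 78899 genes, and each symbol matched a single Ensembl entry. All 9 passed the filter on low counts.

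The samples were sorted, GFP-labelled microglia sequenced in bulk 2 weeks after plating. The labels disagree on their origin: titles and source call them derived from induced pluripotent stem cells, whereas the cell line is given as H1, a human embryonic stem cell line. In the tri-culture group (4 libraries) the microglia were kept with other cells, whose kinds the labels do not name, and no cytokine was added. In the mono-culture group (4 libraries) they were kept alone and received IL-34 at 100 ng/mL and M-CSF at 10 ng/mL, both ligands of the CSF1 receptor, 3 times per week. The absence of the added cytokines and the presence of other cells therefore changed together and cannot be told apart. The labels give 1 cell line for all libraries, and each of 4 batches gave 1 library per group.

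The tri-culture libraries held 17602010 to 24491765 counts and the mono-culture libraries 17037481 to 33363972. The pan-leukocyte gene PTPRC and the myeloid factor SPI1 stood at 632 ± 61.9 CPM in tri-culture and 620.1 ± 46.8 CPM in mono-culture, and at 486 ± 50.9 CPM in tri-culture and 485 ± 49.6 CPM in mono-culture (counts scaled to the TMM-adjusted library size, SD, n = 4 each), and the microglia and macrophage markers AIF1, CSF1R, P2RY12, TMEM119 and CX3CR1 were detected in both groups. On the second principal component, with 13.03% of the variance, batches 1 and 2 lay apart from batches 3 and 4, at 51.8 and 22.9 against -26.1 and -39.7 in tri-culture and at 11.4 and 17.2 against -27.3 and -10.2 in mono-culture. Markers of other cells also differed between the groups. Of 17 tested astrocyte and neural progenitor genes, 13 were higher and 2 lower, with summed levels of 1276 to 1465 CPM in tri-culture and 1139 to 1497 CPM in mono-culture; GFAP stood at 167 ± 81.1 CPM in tri-culture and 0.296 ± 0.153 CPM in mono-culture, CLU at 54.1 ± 32.6 CPM in tri-culture and 0.434 ± 0.168 CPM in mono-culture, FABP7 had 1124 counts over all tri-culture and 1 over all mono-culture libraries, and AQP4, SOX2 and ALDH1L1 had no count in mono-culture. The astrocyte and progenitor sums came mostly from VIM, which was lower (569 ± 35.1 CPM in tri-culture and 948 ± 136 CPM in mono-culture), and S100B, which was higher (359 ± 133 CPM in tri-culture and 124 ± 22.5 CPM in mono-culture). Of 7 tested neuron genes, 4 were higher and 2 lower, with sums of 31.4 to 57.8 CPM in tri-culture and 27.3 to 49.95 CPM in mono-culture, led by GAP43, ELAVL4 and NEFL. Of 8 blood monocyte genes, 5 were higher and 1 lower (223 to 473 CPM in tri-culture, 189 to 216 CPM in mono-culture; CCR2, LYZ and VCAN foremost), and of 10 dendritic cell genes, 6 were higher and 1 lower (365 to 507 CPM in tri-culture, 82.4 to 108 CPM in mono-culture; FCER1A, CD207 and CLEC10A foremost). Hepatocyte genes had 2 tested and none called, and the pan-leukocyte list had 2 higher and 2 lower of 10 (CYBB, ITGB2 and CORO1A among them). Their part in the differences below was not tested.

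Macrophages carry these markers as working parts of their clearing functions. CD163 takes up haemoglobin bound to haptoglobin, MRC1 binds mannose-ended glycans and collagens, LYVE1 binds hyaluronan, and STAB1 and TIMD4 recognise material of dying cells, while F13A1 and SELENOP encode secreted proteins. CD163 and CD163L1 lie side by side on chromosome 12 and both encode chains of scavenger receptor cysteine-rich domains. The 250 bases before their RefSeq starts (GRCh38.p14, minus strand of both, 5′ to 3′) are shown. The windows hold a stretch in common, which is in capitals. Whether it bears on the levels of both genes was not tested. The GENCODE spans given below begin further upstream than these starts. The CD163L1 window lies inside its gene's span (7346685 to 7479897), and the CD163 window crosses the end of its own (7503893). The common stretch lies inside both spans, so the windows are upstream of the RefSeq starts only.
CD163 (chr12:7503778-7504027): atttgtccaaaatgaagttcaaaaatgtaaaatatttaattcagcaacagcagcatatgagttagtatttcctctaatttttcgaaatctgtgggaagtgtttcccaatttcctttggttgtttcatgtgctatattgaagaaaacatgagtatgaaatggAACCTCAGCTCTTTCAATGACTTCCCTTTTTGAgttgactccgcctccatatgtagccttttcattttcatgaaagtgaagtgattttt
CD163L1 (chr12:7444154-7444403): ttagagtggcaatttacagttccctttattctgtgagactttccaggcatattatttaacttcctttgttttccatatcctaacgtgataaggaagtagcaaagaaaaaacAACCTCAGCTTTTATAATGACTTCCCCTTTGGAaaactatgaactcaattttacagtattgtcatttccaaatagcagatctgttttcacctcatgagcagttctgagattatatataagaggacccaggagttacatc
In the gapless match 28 of 33 bases are identical, at bases -89 to -57 before the start of CD163 and -139 to -107 before that of CD163L1, counted back from -1. It scored highest of the 15 pairs among the 6 members with a promoter in the table (23, with 1 point for a match and -1 for a mismatch); the next pairs scored 13. Over the window of 300 bases, which includes 50 after the start, the MAF core TGCTGA was found on either strand in 3 of the 6 (CD163, STAB1 and TIMD4) and in 17.3% of 34794 promoters. The PU.1 site GAGGAAGT was found in F13A1 and in 2.60% of promoters. The glucocorticoid response element and the AP-1 site TGANTCA were in none of the 6, and in 0.391% and 7.73% of promoters. Such matches describe the letters only.

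Of the 9 markers, 6 were lower in tri-culture and none was higher (edgeR quasi-likelihood test, Benjamini-Hochberg adjusted p under 0.05 over all 16249 genes tested), where 26.9% of all genes tested passed in either direction, 2112 of them lower (13% of those tested) and 2261 higher (13.9%). The 6 were LYVE1, FOLR2, CD163, MRC1, CD163L1 and F13A1, and STAB1, TIMD4 and SELENOP did not pass. At an unadjusted p under 0.05 the counts were again 6 lower and 0 higher, and DESeq2 called 5 lower and 0 higher, without F13A1. In 5 markers all tri-culture libraries lay below all mono-culture libraries, as did 14.1% of all genes tested. The median log2 fold change of the 9 was -1.25, against 0.02 over all genes. Together the 9 genes took 0.301% to 0.590% of the counts of the tri-culture libraries and 0.611% to 1.16% of those of the mono-culture libraries. In bulk RNA, fewer cells that carry a transcript and less of it per cell cannot be told apart.

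**Figure D1:**
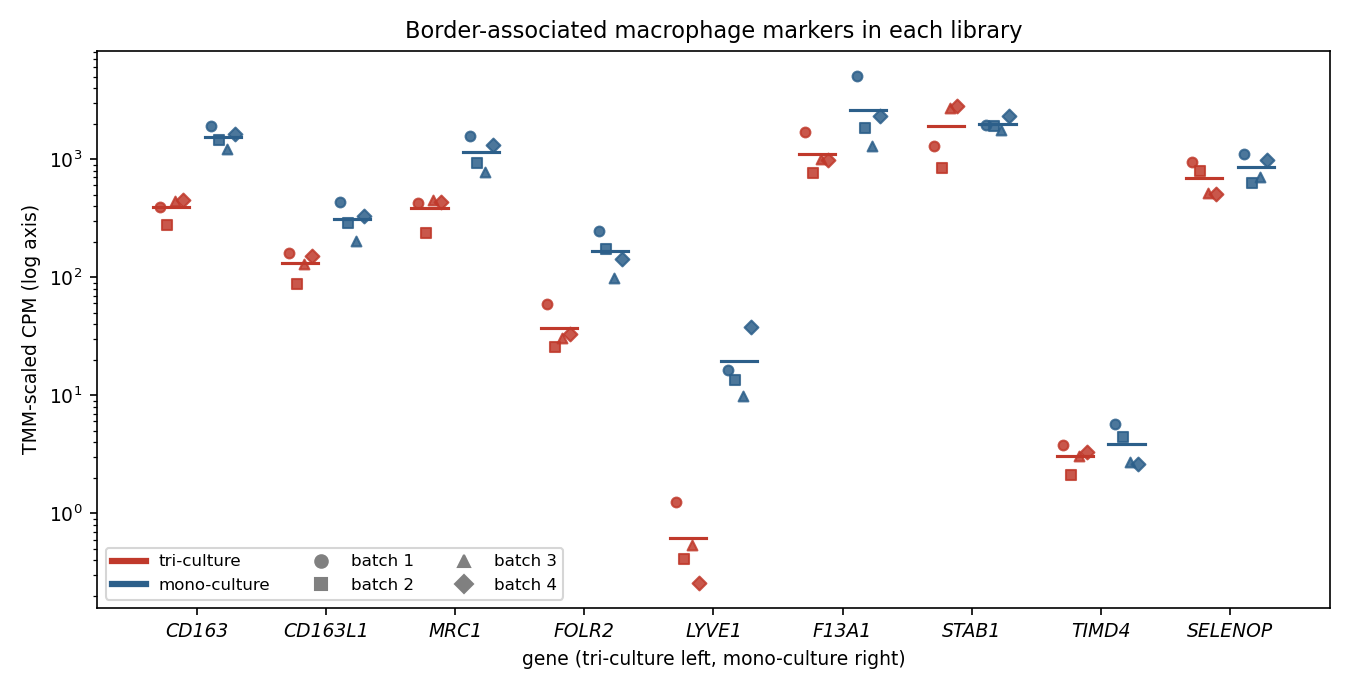
TMM-scaled CPM (log axis) of the 9 markers in each library, tri-culture in red on the left of each pair and mono-culture in blue on the right; symbols mark the batch and bars the mean of 4 libraries. For CD163, CD163L1, MRC1, FOLR2 and LYVE1 every tri-culture library lies below every mono-culture library, and STAB1 in tri-culture splits between batches 1 and 2 (1295 and 837 CPM) and batches 3 and 4 (2722 and 2834 CPM).

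Among the scavenger and endocytic receptors, CD163 (ENSG00000177575, chromosome 12, 7470813 to 7503893 on GRCh38) had 394, 275, 444 and 451 CPM in tri-culture libraries 1 to 4, against 1892, 1441, 1224 and 1637 CPM in mono-culture libraries 1 to 4. The highest tri-culture library was well below the lowest mono-culture library. The difference was 3.96-fold (log2 fold change -1.99 ± 0.19 SE, adjusted p = 6.50e-06), lower in 4 of 4 batches. CD163L1 (ENSG00000177675, chromosome 12, 7346685 to 7479897) had 161, 87.1, 129.6 and 150.5 CPM in tri-culture, against 436, 286, 205 and 328 CPM in mono-culture. Its groups did not overlap either, but the gap was narrow. It fell 2.37-fold (log2 fold change -1.25 ± 0.23 SE, adjusted p = 0.00107), in 4 of 4 batches. GENCODE 29 gives CD163L1 and CD163 overlapping spans on the same strand, with 38 exon bases in common, 0.654% of the exon bases of CD163. In that annotation few reads could be claimed by both genes. The annotation behind the counts is not given, so the overlap in it was not examined.

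MRC1, the mannose receptor CD206 (ENSG00000260314, chromosome 10, 17809344 to 17911170), had 423, 236, 447 and 430.0 CPM in tri-culture, against 1556, 935, 776 and 1329 CPM in mono-culture. Tri-culture library 2 was the lowest, and the groups did not overlap. MRC1 fell 2.99-fold (log2 fold change -1.58 ± 0.24 SE, adjusted p = 0.000311), in 4 of 4 batches. FOLR2, the folate receptor beta (ENSG00000165457, chromosome 11, 72216601 to 72221950), had 59.7, 25.9, 30.6 and 33.4 CPM in tri-culture, against 247, 173, 98.3 and 142 CPM in mono-culture. In both groups the library of batch 1 was the highest, and the groups did not overlap. FOLR2 fell 4.42-fold (log2 fold change -2.15 ± 0.29 SE, adjusted p = 0.000117), in 4 of 4 batches. Its close copies FOLR1 and FOLR3 had 15 and 1 counts over all tri-culture libraries and 13 and 10 over all mono-culture libraries, so little of this family's signal could have been assigned to them.

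LYVE1, the lymphatic and macrophage receptor for hyaluronan (ENSG00000133800, chromosome 11, 10556966 to 10611689), showed the largest fold difference of the 9. It had 1.24, 0.408, 0.544 and 0.260 CPM in tri-culture, from 27, 10, 12 and 5 counts, against 16.5, 13.4, 9.78 and 38.2 CPM in mono-culture, from 481, 242, 328 and 636 counts. Mono-culture library 4 was the highest and tri-culture library 4 the lowest, so that batch 4 gave the widest difference, -6.79 on the log2 scale, and batch 1 the smallest, -3.64. The fit gave a 31.2-fold fall (log2 fold change -4.96 ± 0.51 SE, adjusted p = 1.25e-05). The size of the fall varied with the libraries: the log2 fold change was -5.55 without tri-culture library 1, -5.62 without batch 1, -4.19 without batch 4, -4.21 with batches 1 and 2 only and -4.06 with limma on the signal (pseudocount 0.5). Few counts lie behind the tri-culture values, and with batches 3 and 4 only (2 libraries per group, an alternative added once the data had been seen) LYVE1 missed the threshold (log2 fold change -5.82, adjusted p = 0.0834). Lymphatic and blood endothelial cells also carry LYVE1, STAB1 and MRC1. Of 17 endothelial genes 10 were tested, of which 3 were higher and 3 lower, with summed levels of 491 to 603 CPM in tri-culture and 325 to 430 CPM in mono-culture, mostly from PECAM1, which myeloid cells also express. The most significant were MMRN1, a gene of lymphatic endothelium and platelets (12.2 ± 1.40 CPM in tri-culture and 0.888 ± 0.222 CPM in mono-culture), PDPN, podoplanin (7.40 ± 1.51 CPM in tri-culture and 1.41 ± 0.687 CPM in mono-culture), and EGFL7, which was lower (19.0 ± 4.74 CPM in tri-culture and 67.6 ± 19.8 CPM in mono-culture). TIE1 was lower too (0.458 ± 0.132 CPM in tri-culture and 2.69 ± 0.523 CPM in mono-culture), as was FLT1 (0.882 ± 0.424 CPM in tri-culture and 2.68 ± 0.490 CPM in mono-culture), and PECAM1 was higher. CDH5, KDR, PROX1 and VWF were detected in both groups, at means of 2.00 to 4.58 CPM in tri-culture and 2.36 to 3.79 CPM in mono-culture, and did not pass the test. Of the 7 genes that were not tested, CLDN5, EMCN, ERG, ESAM and FLT4 had at most 14 counts in either group, CCL21 had 21 in tri-culture and 33 in mono-culture, and TEK had 53 in tri-culture and 2 in mono-culture. The part of such cells in the LYVE1 result was not tested.

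Of the markers for secreted proteins, F13A1, the catalytic A subunit of coagulation factor XIII (ENSG00000124491, chromosome 6, 6144085 to 6321013), had 1685, 757, 1003 and 989.9 CPM in tri-culture, against 5051, 1824, 1282 and 2299 CPM in mono-culture. The library of batch 1 was the highest of both groups, and tri-culture library 1 lay above mono-culture library 3, so the groups overlapped. F13A1 fell 2.36-fold (log2 fold change -1.24 ± 0.37 SE, adjusted p = 0.0241), in 4 of 4 batches, by between 0.35 (batch 3) and 1.58 (batch 1) on the log2 scale. In the fit on the group alone the call rested on single libraries. Without mono-culture library 1 the log2 fold change was -0.70 (adjusted p = 0.0846). Without tri-culture library 2, 3 or 4 it was -1.09, -1.19 and -1.19 (adjusted p = 0.0809, 0.0711 and 0.0660). The call was also lost without both libraries of batch 2 (adjusted p = 0.0734) or of batch 4 (0.0750), and with DESeq2 (0.0809). It stayed without both libraries of batch 1 (adjusted p = 0.00845) or of batch 3 (0.0338). With the batch as a block in the fit the log2 fold change was -1.11 ± 0.18 SE (edgeR, adjusted p = 0.000341).

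SELENOP (ENSG00000250722, chromosome 5, 42799880 to 42887392), which carries selenium between cells, had 953, 788, 520.3 and 504 CPM in tri-culture, against 1115, 631, 711 and 988 CPM in mono-culture. The groups overlapped over most of their range, and tri-culture libraries 3 and 4 were the lowest of the 8. The log2 fold change was -0.32 ± 0.23 SE (adjusted p = 0.362), with lower values in 3 of 4 batches. Within batches 3 and 4 SELENOP was lower (log2 fold change -0.73, adjusted p = 0.00242) and within batches 1 and 2 it stood at -0.02 (adjusted p = 0.975), in subsets chosen after seeing the data; the difference between the subsets was not tested. Exons on the opposite strand cover 36.1% of its exon bases in GENCODE 29, and the use of strand is not given. Of those genes, CCDC152 stood at 10.5 ± 2.30 CPM in tri-culture and 9.57 ± 3.48 CPM in mono-culture. How reads shared by both genes were counted is not given either, so these values cannot show whether SELENOP lost counts to the overlap.

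STAB1, stabilin-1, an endocytic receptor for modified lipoproteins and extracellular debris (ENSG00000010327, chromosome 3, 52495338 to 52524495), had 1295, 837, 2722 and 2834 CPM in tri-culture, against 1948, 1917, 1771 and 2305 CPM in mono-culture. Tri-culture libraries 1 and 2 lay below every mono-culture library, and tri-culture libraries 3 and 4 lay above every one of them. The mono-culture libraries differed at most 1.30-fold and the tri-culture libraries 3.39-fold. Over all libraries the log2 fold change was -0.05 ± 0.31 SE (adjusted p = 0.938), and its sign turned with the scaling: it was 0.08 with library size only, 0.05 with upper quartile factors and 0.13 with scaling to pan-leukocyte genes. Within batches 1 and 2 STAB1 was lower (log2 fold change -0.87, adjusted p = 0.0166) and within batches 3 and 4 it was higher (0.45, adjusted p = 0.0225), in subsets chosen after seeing the data; the difference between them was not tested. The same batches parted on the second principal component in both groups. STAB2, the relative of STAB1, had 1 count over all tri-culture and 1 over all mono-culture libraries.

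TIMD4, the phosphatidylserine receptor TIM-4 (ENSG00000145850, chromosome 5, 156919282 to 156963255), was scarce in both groups. It had 3.77, 2.121, 3.08 and 3.33 CPM in tri-culture, from 52 to 82 counts, against 5.75, 4.44, 2.74 and 2.64 CPM in mono-culture, from 44 to 168 counts. The groups overlapped, with lower values in batches 1 and 2 and higher values in batches 3 and 4 (log2 fold change -0.35 ± 0.30 SE, adjusted p = 0.450).

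**Figure D2:**
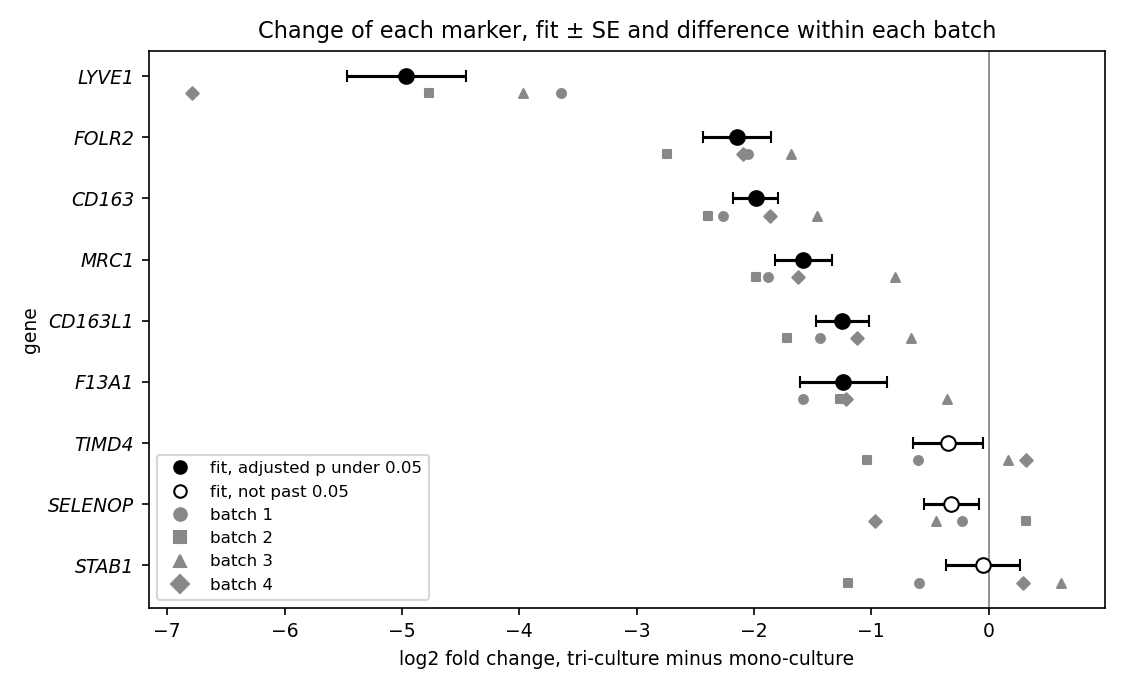
Log2 fold change of each marker, tri-culture minus mono-culture, from the fit over all genes (circles, ± SE; filled where adjusted p is under 0.05), with the difference between both libraries of each batch in grey under it. The 6 called markers are lower in all 4 batches, with the smallest fall in batch 3 for 5 of them, and STAB1 and TIMD4 are lower in batches 1 and 2 and higher in batches 3 and 4.

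The called markers varied in a common way over the batches. Batch 3 gave the smallest fall in 5 of the 6 (CD163 -1.46, CD163L1 -0.66, MRC1 -0.79, F13A1 -0.35 and FOLR2 -1.68 on the log2 scale), and batch 2 the largest in 4 of them. Mono-culture library 3 was the lowest mono-culture library for all 6, and tri-culture library 2 was the lowest tri-culture library for all but LYVE1, where library 4 was lower. With the batch as a replicate block all 6 stayed called and no other marker was.

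The sizes of the falls differed among the markers. The ratio of a pair of markers within a library does not depend on how libraries are scaled, and 36 ratios were compared by a 2-sided exact permutation test over the 8 libraries, a comparison added after seeing the data. In 22 of the 36 the ratio did not overlap between the groups, where 32.6% of all pairs of tested genes did not overlap. Each of the 22 had an exact permutation p of 0.0286, the smallest the design allows (0.0468 adjusted over the 36 ratios). The adjusted value thus depends only on how many ratios reached that floor. The ratios share 9 genes, and LYVE1 is in 8 of the 22, so they are not separate results. LYVE1 fell more than each of the other 8 markers: its log2 ratio to FOLR2 differed least between the groups, by -2.89, and its log2 ratio to STAB1 most, by -4.82. The ratio of CD163 to CD163L1 averaged 1.58 ± 0.21 in tri-culture and 2.34 ± 0.19 in mono-culture on the log2 scale (SD, n = 4 each), so that CD163 fell more than its neighbour. The log2 ratio of CD163 to FOLR2 was 3.44 ± 0.51 in tri-culture and 3.29 ± 0.34 in mono-culture (difference 0.15, exact permutation p = 0.629). The log2 ratios of CD163, MRC1 and FOLR2 to STAB1 differed by -1.78, -1.35 and -1.93, without overlap in each. Those of CD163L1 and F13A1 to STAB1 did not pass (exact permutation p = 0.0571 and 0.229), although both were lower in 4 of 4 batches. This test does not use the batches. Within batches, 30 of the 36 ratios moved one way in all 4. The 22 without overlap had to do so, because separate groups fix the sign in every batch. Of the other 14, whose sign could vary, 8 moved one way. The share over all pairs of tested genes was not computed. An exact paired permutation test over 4 batches could not go below p = 0.125.

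Levels of different genes were compared on the second deposited table, which is scaled to gene length. In tri-culture F13A1 stood first at 850.1 ± 303, followed by STAB1 (654 ± 341), SELENOP (454 ± 143), MRC1 (251 ± 64.2), CD163 (221 ± 45.1), CD163L1 (82.3 ± 19.9), FOLR2 (45.9 ± 18.4), TIMD4 (7.32 ± 1.62) and LYVE1 (0.630 ± 0.443), as signal per length (mean ± SD of 4 libraries). In mono-culture F13A1 was also first, at 2002 ± 1310, followed by CD163 (870.1 ± 168.5), MRC1 (748 ± 241), STAB1 (672 ± 79.6), SELENOP (563 ± 156), FOLR2 (202 ± 78.3), CD163L1 (195 ± 61.7), LYVE1 (19.9 ± 13.1) and TIMD4 (9.22 ± 3.57). CD163 and MRC1 thus stood above STAB1 and SELENOP on average in mono-culture and below both in tri-culture. Ranges of neighbours that did not overlap were found in tri-culture between SELENOP and MRC1, CD163 and CD163L1, FOLR2 and TIMD4, and TIMD4 and LYVE1, and in mono-culture between SELENOP and FOLR2 and between CD163L1 and LYVE1. All other neighbours overlapped.

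**Figure D3:**
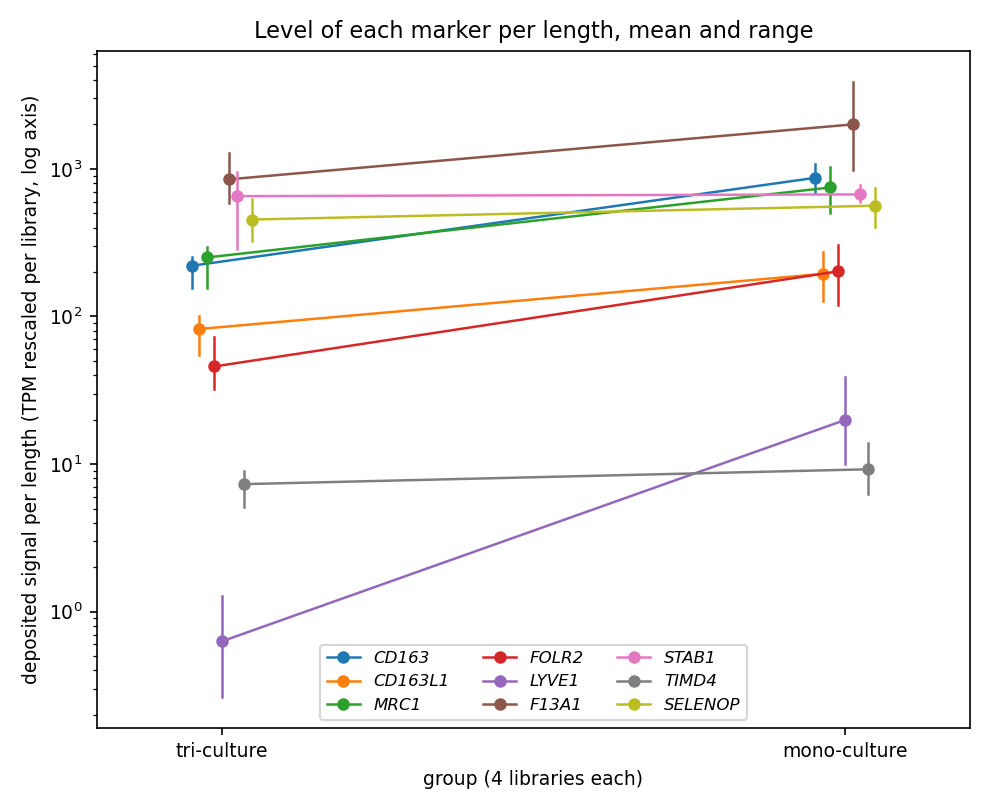
Deposited signal per length (labelled TPM rescaled per library, which is assumed, log axis) of the 9 markers in tri-culture on the left and mono-culture on the right. Points are means of 4 libraries and vertical lines the range. CD163 and MRC1 stand below STAB1 and SELENOP in tri-culture (221 and 251, against 654 and 454) and above them in mono-culture (870.1 and 748, against 672 and 563), and LYVE1 drops below TIMD4 in tri-culture.

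Other genes used to mark border or LYVE1-bearing tissue macrophages moved in both directions. Of 28 on the list 24 were tested, 13 of which were lower and 5 higher in tri-culture, with a median log2 fold change of -0.915 against 0.02 over all genes. Over all genes tested, 13% were lower and 13.9% higher. Whether this list or those below differed from these shares was not tested. The inhibitory receptor gene LILRB5 stood at 1.44 ± 0.642 CPM in tri-culture and 102 ± 5.32 CPM in mono-culture (log2 fold change -6.17 ± 0.26 SE, edgeR, adjusted p = 8.82e-09). Those higher were the lectin genes CLEC10A (133 ± 44.7 CPM in tri-culture and 13.9 ± 5.55 CPM in mono-culture) and CLEC12A (9.17 ± 2.65 CPM in tri-culture and 0.471 ± 0.276 CPM in mono-culture), LYZ, MS4A6A and the iron exporter gene SLC40A1 (414 ± 139 CPM in tri-culture and 92.1 ± 41.2 CPM in mono-culture). The other lower genes were COLEC12 (22.6 ± 8.33 CPM in tri-culture and 177 ± 47.0 CPM in mono-culture), PLTP, VSIG4, DAB2, NRP1, CCL8, CD36, CD209, SIGLEC1, RNASE1, CD14 and CCL13. CLEC10A is also on the dendritic cell list above, and LYZ and CD14 are on the blood monocyte list. Platelet factor PF4, a border macrophage marker in mice, had no count in any library. Of 17 tested homeostatic microglia genes, 10 were higher and 1 lower, with OLFML3, CX3CR1 and SALL1 foremost.

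Genes that work with the scavenger receptors also moved. Among 17 tested genes of haemoglobin uptake and haem breakdown, 7 were lower and 2 higher (median log2 fold change -0.51). They included both biliverdin reductases, BLVRB (45.2 ± 6.36 CPM in tri-culture and 230.1 ± 33.8 CPM in mono-culture) and BLVRA (13.7 ± 3.00 CPM in tri-culture and 70.6 ± 6.57 CPM in mono-culture), as well as LRP1, the haemopexin receptor; HMOX1 was lower at 257 ± 30.2 CPM in tri-culture and 390.5 ± 107 CPM in mono-culture (adjusted p = 0.0268). ADAM17, the protease that sheds CD163, stood at 93.8 ± 18.3 CPM in tri-culture and 95.9 ± 10.8 CPM in mono-culture (adjusted p = 0.908). Of the other genes with scavenger receptor cysteine-rich domains 6 of 14 were tested, and 2 were lower and 1 higher. MSR1, scavenger receptor A, fell 3.51-fold to 186 ± 56.9 CPM in tri-culture, against 652 ± 86.5 CPM in mono-culture. LGALS3BP was also lower (15.01 ± 2.29 CPM in tri-culture and 32.99 ± 7.43 CPM in mono-culture), and the lysyl oxidase LOXL2 was higher (1.56 ± 0.830 CPM in tri-culture and 0.544 ± 0.144 CPM in mono-culture).

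The relatives of MRC1 went the other way in part. Of 5 tested genes of the mannose receptor family and like lectins, 3 were higher and 1 lower, and MRC2, the collagen receptor Endo180, stood at 33.1 ± 6.51 CPM in tri-culture and 1.68 ± 0.564 CPM in mono-culture (log2 fold change 4.32 ± 0.24 SE, edgeR, adjusted p = 8.10e-08). CLEC10A, a lectin, was higher as well, and CD209, DC-SIGN, was lower (0.644 ± 0.239 CPM in tri-culture and 2.51 ± 0.258 CPM in mono-culture). MRC2 is also a gene of fibroblasts and other mesenchymal cells; of their 9 tested markers 5 rose in tri-culture, TAGLN, THY1 and RGS5 foremost (summed levels of 24.6 to 426 CPM in tri-culture and 20.5 to 39.5 CPM in mono-culture); their part in it was not tested. Of 13 tested hyaluronan genes, 5 were lower and 3 higher: CEMIP2, a cell-surface protein linked to hyaluronan breakdown, fell 3.61-fold to 91.6 ± 14.9 CPM in tri-culture, against 331 ± 30.9 CPM in mono-culture, and CD44, the main hyaluronan receptor of leukocytes, was lower at 215 ± 26.2 CPM in tri-culture and 315 ± 28.5 CPM in mono-culture. VCAN, versican, a matrix proteoglycan that binds hyaluronan, was higher, with 360 counts over all tri-culture and 2 over all mono-culture libraries (adjusted p = 5.07e-05, edgeR).

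Of 21 tested genes of apoptotic cell uptake, the task that STAB1 and TIMD4 share, 12 were higher and 2 lower, with a median log2 fold change of 0.51. The higher genes included the receptor tyrosine kinases AXL (332 ± 68.9 CPM in tri-culture and 88.5 ± 14.1 CPM in mono-culture) and MERTK, the receptor CD300LF and the integrin subunit ITGAV. Of 15 tested folate genes, 7 were lower and 2 higher: the thymidylate synthase TYMS (10.8 ± 2.21 CPM in tri-culture and 25.2 ± 3.14 CPM in mono-culture) and ALDH1L2 were lower, and ALDH1L1, also an astrocyte gene, had 102 counts over all tri-culture libraries and none in mono-culture. The folate carriers SLC19A1 and SLC46A1 stood at log2 fold changes of -0.16 and 0.32 (adjusted p = 0.470 and 0.0866). Of 13 tested transglutaminase and coagulation genes, 4 were lower and 2 higher. FGL2, a fibrinogen-like protein with prothrombinase activity, rose 7.41-fold to 279 ± 26.6 CPM in tri-culture, against 37.6 ± 11.3 CPM in mono-culture (adjusted p = 4.08e-07, edgeR). The tissue transglutaminase TGM2 fell 4.22-fold to 4.36 ± 0.766 CPM in tri-culture, against 18.4 ± 4.42 CPM in mono-culture, and the plasminogen activator PLAU was lower at 13.1 ± 1.24 CPM in tri-culture and 23.9 ± 2.59 CPM in mono-culture. The selenium list had 4 lower and 1 higher of 24 tested (16.7% and 4.17%, against 13% and 13.9% of all genes tested). LRP8, a receptor for SELENOP, was lower at 5.48 ± 1.81 CPM in tri-culture and 17.3 ± 4.64 CPM in mono-culture (adjusted p = 0.00038). SELENOM was higher (2.76 ± 0.720 CPM in tri-culture and 0.934 ± 0.573 CPM in mono-culture) and GPX3 lower (15.2 ± 3.52 CPM in tri-culture and 25.4 ± 8.67 CPM in mono-culture).

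Among 25 tested transcription factors and receptors that act on macrophage genes, 9 were lower and 6 higher. MAF, a factor of resident macrophages, was lower and stood at 541 ± 108 CPM in tri-culture and 941 ± 196 CPM in mono-culture (log2 fold change -0.80 ± 0.19 SE, edgeR, adjusted p = 0.00594). PPARG, KLF4 and RUNX1 were also lower, and IRF4 and IRF8 higher. IL10 stood at 3.46 ± 1.08 CPM in tri-culture and 5.14 ± 0.919 CPM in mono-culture (adjusted p = 0.126) and the glucocorticoid receptor NR3C1 at 135 ± 18.04 CPM in tri-culture and 112 ± 11.8 CPM in mono-culture (adjusted p = 0.137). Of 12 tested glucocorticoid targets, 5 were higher and 3 lower, with ADORA3 and DUSP1 higher and KLF9 lower foremost.

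**Figure D4:**
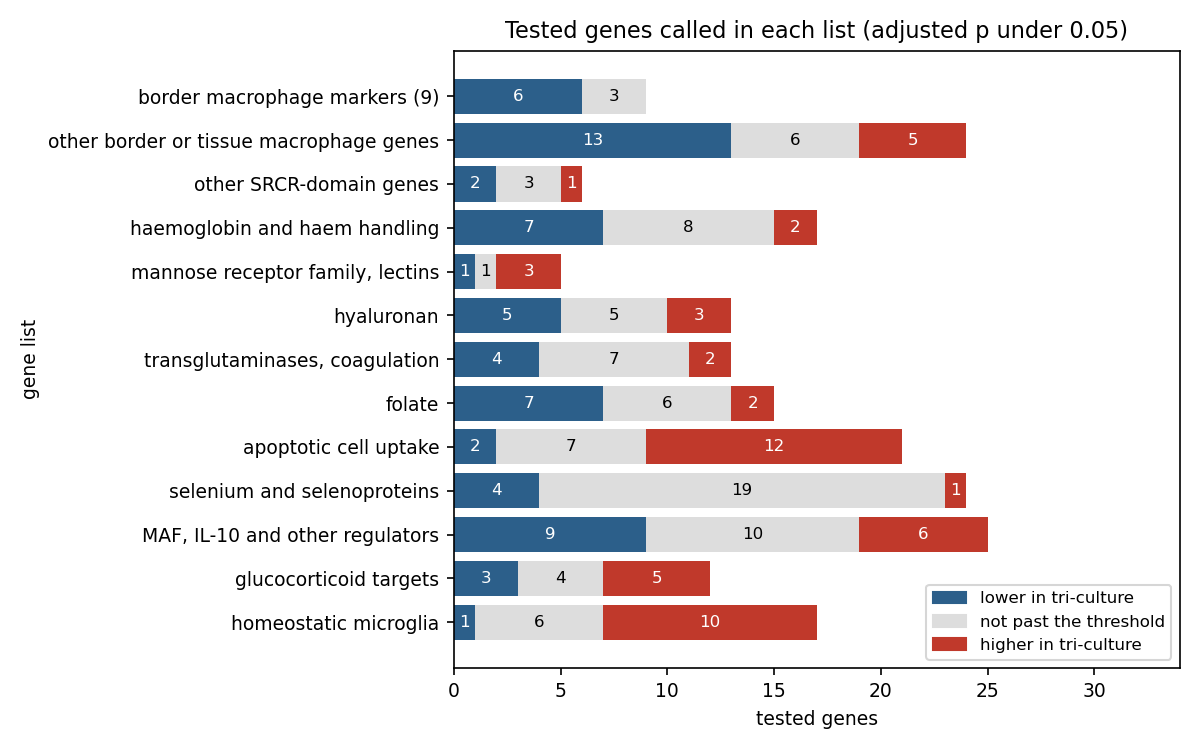
Number of tested genes in each list that were lower (blue) or higher (red) in tri-culture at an adjusted p under 0.05, or did not pass (grey). The 9 border macrophage markers hold 6 lower and no higher genes, whereas the homeostatic microglia list holds 10 higher and 1 lower of 17. Of all genes tested, 13% were lower and 13.9% higher.

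Over the 8 libraries, the profiles nearest to that of CD163 among 10591 other genes with a symbol and a mean of at least 5 CPM were those of RTN4RL1, PLEKHG3, MYO7A, CRIM1 and GCNT2, at root mean squared differences of 0.0808 to 0.187 between centred log2 CPM values. Nearest to LYVE1 were PID1, BMP2, RNF128, VNN1 and STC2, at 0.576 to 0.730. Among the markers themselves CD163L1 and MRC1 were nearest to each other (0.217), followed by CD163 and MRC1 (0.259). LYVE1 lay at least 1.47 from every other marker.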

How the data were processed

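Counts per gene were deposited by the authors as whole numbers; HISAT2 2.1.0, featureCounts 2.12.3 and GRCh38 are named in the submitters' processing notes, while the sources used here give neither the annotation release nor the use of strand. The deposited signal values of a second table, called TPM by the authors, had totals that differed between libraries, so they are not plain TPM. How they were scaled is not stated. A rescaling of TPM per library was assumed and not tested. No column of per-sample values was left unused.

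Genes were filtered with filterByExpr (minimum count 10, total 15), scaled with TMM and fitted in R 4.3.3 with the robust quasi-likelihood model of edgeR 4.0.16 on the group alone, with Benjamini-Hochberg adjustment over 16249 genes and a threshold of 0.05. The test was first run on simulated counts. Each SE was approximated as |log2 fold change| / √F. CPM use TMM-scaled library sizes, and log2 CPM for batch differences and profiles a prior count of 2. The markers, gene lists, tests and alternatives were chosen with earlier results of these data known. Each list beside the markers was to be named by up to 3 called genes of smallest adjusted p. Named after their values were seen were AQP4, SOX2, VIM, S100B, CDH5, KDR, PROX1, VWF, PECAM1, TIE1, FLT1 and the endothelial genes that were not tested. So were SLC40A1, LYZ, MS4A6A, PF4 and the lower border or tissue macrophage genes other than LILRB5. The same holds for MERTK, LRP1, HMOX1, ADAM17, SLC19A1, SLC46A1, MAF, IRF4, IRF8, IL10, NR3C1 and the genes that overlap or copy a marker.

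A batch number in the labels, common to both groups, pairs the libraries; correlations of their deviations from group means were 0.185, 0.1265, 0.264 and 0.0796 within batches 1 to 4. The labels call the batches independent. Replicates differed by more than sampling noise (chi-square per degree of freedom 9.21 to 65.1). Coordinates are from GENCODE 29 and promoters from RefSeq (GRCh38.p14, 6 of 9 markers). Alternatives were other scaling, filters, DESeq2 1.42.0, limma 3.58.1 on the signal, the replicate block, libraries left out, and batches 1 and 2 or 3 and 4 only, added after seeing the data.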

Additional observations from a re-analysis of the deposited data

Results flagged for a closer look

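Tri-culture library 2 stood apart for MRC1, with 236 CPM against 423, 447 and 430 CPM in the other tri-culture libraries: its gap to the nearest of them was 0.8865 of the group's range, above Dixon's critical value of 0.829 for 4 samples. This was 1 flag in 18 groups (9 markers in both cultures), and chance flags about 1 in 20. Without that library the log2 fold change of MRC1 was -1.41 (edgeR, adjusted p = 0.000515) and stayed past the threshold.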

How the results depend on the processing

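CD163, CD163L1, MRC1 and FOLR2 kept their direction and their call under all 25 alternatives, with log2 fold changes of -2.33 to -1.67, -1.55 to -0.92, -1.93 to -1.26 and -2.47 to -1.88. LYVE1 did so under 24 (-5.82 to -4.06), missing the threshold with batches 3 and 4 only (-5.82), and F13A1 under 12. F13A1 was lost without the filter on low counts (-1.26), with DESeq2 (-1.26), with limma on the signal (-1.10 with a pseudocount of 0.5 or 0.1, and -1.10 without the filter) and with batches 1 and 2 only (-1.51) or 3 and 4 only (-0.84), and leaving out libraries gave -1.52 to -0.70. STAB1 turned its sign with library size only (0.079), upper quartile factors (0.046), pan-leukocyte scaling (0.13) and batches 3 and 4 only (0.45), and with batches 1 and 2 only it passed the threshold (-0.87); leaving out libraries gave -0.30 to 0.20. TIMD4 turned with batches 3 and 4 only (0.25) and SELENOP passed the threshold there (-0.73). The causes were not tested. With the replicate block the same 6 markers were called (F13A1 at -1.11), and 4733 genes over the whole table against 4373 without it; it changed no marker's call. The whole table gave 2955 to 5954 called genes. The share of calls that were higher was 51.7% with TMM, 63.0% with library size only, 60.6% with upper quartile factors and 67.5% with pan-leukocyte scaling, which moved the median of all genes to 0.16, against 0.02 with TMM; all 6 called markers stayed lower under it. The count of ratios without overlap was 22 to 26 of 36 when libraries were left out, where 35.1% to 43% of all gene pairs did not overlap. With batches 1 and 2 only and 3 and 4 only it was 30 and 32, where 61.2% and 69.7% of all gene pairs did not overlap. With all libraries that share was 32.6%. With 2 libraries per group in the batch subsets, p-values rest on a spread pooled over genes. The 5 to 27 counts behind LYVE1 in tri-culture limit its fold change.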
